A study of Mus musculus with 4 samples.

Results

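Extracellular ATP, NAD, nucleotide sugars and adenosine are sensed by lymphocytes through purinergic receptors, and their levels are set by enzymes on the cell surface. The 9 genes described here were taken by name: the ATP-gated channels P2rx4 and P2rx7, the G protein-coupled receptors P2ry10, P2ry14 and Adora2a, and the ectoenzymes Entpd1, Nt5e, Cd38 and Art2b, out of 54752 genes in the count files. All 9 passed the filter on low counts. Their RNA was counted in 2 WT and 2 Mek1/2-tKO libraries of mouse spleen CD4+ T cells on day 3 of in vitro polarization towards T follicular helper (Tfh) cells, the T cells that help B cells in germinal centres. The Mek1/2-tKO mice carried floxed Map2k1 and Map2k2, which encode the kinases MEK1 and MEK2 above ERK, and Cd4-Cre, a transgene that is active in the T-cell lineage and starts in the thymus, so that the deletion preceded the culture; CD8 T cells of such mice also pass through a stage with active Cd4-Cre. WT mice were the littermate controls, and both genotypes were on a C57BL/6 background. Cells of both genotypes were enriched as naïve CD4+ T cells, stimulated with antibodies to CD3 and CD28 in the presence of IL-6 and of blocking antibodies against IL-4, TGF-β, IFN-γ and IL-2, and re-sorted for viability before RNA extraction. The ages of the mice, and whether replicates came from separate mice or cultures, are not given in the sources used here, so the p-values measure only the spread between these libraries, which may be technical.

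As background, ATP released by stressed or activated cells opens P2X channels. P2X7, the least sensitive of them to ATP, can drive pore formation, shedding of surface proteins and death of T cells, and it is known to limit Tfh cells in Peyer's patches. CD39, the product of Entpd1, removes phosphates from ATP and ADP, CD73, the product of Nt5e, turns the AMP that remains into adenosine, and the adenosine receptor encoded by Adora2a raises cyclic AMP and restrains T-cell activation. In mouse T cells the ADP-ribosyltransferase encoded by Art2b uses extracellular NAD to modify P2X7 and to open it without ATP, while CD38 breaks down the same NAD. P2ry14 encodes a receptor for UDP-glucose and P2ry10 a receptor for lysophosphatidylserine that belongs to the P2Y-like family by sequence.

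The libraries held between 16330802 and 18931090 counts. Levels are given as CPM, the counts of a gene scaled to library size with edgeR's TMM factors, and fold changes are Mek1/2-tKO over WT. A call required an adjusted p under 0.05 together with a 1.5-fold change. SE is an approximate standard error: the absolute log2 fold change divided by the square root of the F statistic of edgeR's test. Map2k1 lay at 182 and 187 CPM in WT and at 98.0 and 105 CPM in Mek1/2-tKO (log2 fold change -0.86), whereas Map2k2 lay at 155 and 165 CPM in WT and at 172 and 182 CPM in Mek1/2-tKO (log2 fold change 0.15, not called). The counts add up all exons of a gene, including those outside the deleted part, and therefore do not check the deletion at either gene. The libraries labelled Mek1/2-tKO went against the label CD4+ T cell: Cd4 itself fell from 297 and 289 CPM to 18.8 and 25.1 CPM and Cd3e from 91.8 and 91.7 CPM to 43.9 and 44.1 CPM. Of 12 alpha-beta T-cell identity genes 6 were lower and 1, Thy1, was higher, and their summed level was 3289 and 3309 CPM in WT against 2864 and 2690 CPM in Mek1/2-tKO. The B-lineage markers, 12 of 12, rose in Mek1/2-tKO, with summed levels of 1288 and 1267 CPM against 6977 and 6928 CPM, led by Ighm. The summed level of 13 myeloid and dendritic markers was 60.9 and 52.4 CPM against 251 and 263 CPM, with the 7 that were tested all higher, Mpeg1 leading, and Adgre1, Clec9a, Siglech and S100a8 at 0 in WT. NK-cell markers (10 of 10 higher, 149 and 148 CPM against 945 and 861 CPM, led by Nkg7), gamma-delta T-cell markers (6 of the 6 tested of 8 higher, 22.1 and 22.2 CPM against 261 and 257 CPM, Trdv4 at 0 in WT, led by Blk, which is also a B-lineage marker) and the 2 CD8 T-cell markers (67.4 and 59.3 CPM against 238 and 214 CPM, led by Cd8a) rose likewise. Of 8 regulatory T-cell markers 5 were lower and 3 were not called (1068 and 1057 CPM against 515 and 500 CPM, led by Il2ra). Every comparison below moves with these markers, and their part in the results was not tested. As the 2 Mek1/2-tKO libraries share this composition, no comparison could be made without them, and a change in the share of cells of a type cannot be told apart from a change in RNA per cell.

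RefSeq start sites on the GRCm38.p6 assembly, the build of the count files, were at hand for 8 of the 9 genes in 14 windows, and Adora2a had none. The 250 bases before each start were searched on both strands for 3 motifs of factors that act below ERK or cyclic AMP: the AP-1 site TGANTCA, where N is any base, the ETS site CCGGAAG and the cyclic AMP response element TGACGTCA. The AP-1 letters were in 5 of the 14 windows, those of P2rx7, P2ry10, P2ry14 (2 windows) and Art2b, against 6.75% of all 32851 windows. P2rx7, P2ry10 and P2ry14 also had windows at other starts without the letters, and counts per whole gene do not show which start these cells used. Windows of the same gene can overlap, as those of P2ry14 did, so the 14 are not independent and the difference in share was not tested. None of the 14 held the ETS letters, found in 6.91% of all windows, or the response element, found in 1.55%. The windows with a match are shown because they belong to the 2 genes of the set that fell (P2rx7, Art2b), to 1 that rose (P2ry14) and to 1 that was not called (P2ry10), and P2rx4 is shown beside its neighbour P2rx7 as a window without a match. For P2ry14 the first of its windows is given. They are written 5′ to 3′ on the gene's strand with bases inside annotated exons left out, and capitals mark the AP-1 letters.
P2rx7, chr5:122643677-122643910, plus strand: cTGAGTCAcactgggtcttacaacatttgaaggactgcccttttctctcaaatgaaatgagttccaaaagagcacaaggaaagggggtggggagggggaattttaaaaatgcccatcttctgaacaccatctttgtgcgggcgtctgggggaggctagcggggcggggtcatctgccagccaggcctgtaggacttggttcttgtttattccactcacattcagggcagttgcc
P2rx4, chr5:122707294-122707543, plus strand: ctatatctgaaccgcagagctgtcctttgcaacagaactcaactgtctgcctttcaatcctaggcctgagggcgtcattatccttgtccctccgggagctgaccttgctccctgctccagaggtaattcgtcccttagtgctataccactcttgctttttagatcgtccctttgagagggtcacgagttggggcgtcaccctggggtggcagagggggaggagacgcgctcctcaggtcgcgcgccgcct
P2ry10, chrX:107088242-107088491, plus strand: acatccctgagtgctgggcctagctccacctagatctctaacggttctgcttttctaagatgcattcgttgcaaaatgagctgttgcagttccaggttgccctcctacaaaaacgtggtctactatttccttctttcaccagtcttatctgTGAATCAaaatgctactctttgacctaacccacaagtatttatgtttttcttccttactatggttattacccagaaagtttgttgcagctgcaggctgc
P2ry14, chr3:59153619-59153742, minus strand: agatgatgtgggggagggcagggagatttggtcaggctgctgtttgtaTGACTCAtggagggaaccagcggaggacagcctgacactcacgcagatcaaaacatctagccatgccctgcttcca
Art2b, chr7:101581180-101581411, minus strand: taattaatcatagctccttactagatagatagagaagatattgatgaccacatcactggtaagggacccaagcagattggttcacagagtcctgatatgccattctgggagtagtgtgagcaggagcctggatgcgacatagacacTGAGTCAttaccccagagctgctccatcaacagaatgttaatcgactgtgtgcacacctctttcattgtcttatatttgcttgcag
The match began 249 bases before the start of P2rx7, 99 bases before that of P2ry10, 202 bases before that of P2ry14 and 104 bases before that of Art2b. The RefSeq start of Art2b, and with it the window, lies inside the span of that gene in the count files (chr7:101576970-101585600), downstream of its outermost start. The match is a description of the letters, and the genes that carried it moved in different directions.

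Of the 9 genes, 5 were higher in Mek1/2-tKO (Cd38, P2ry14, Entpd1, Nt5e and Adora2a), 2 were lower (P2rx7 and Art2b), and 2 were not called (P2rx4 and P2ry10). Across all 14330 genes tested, 35.8% were called, 19.3% as higher and 16.4% as lower. The median log2 fold change of the 9 genes was 0.61 and that of all tested genes 0.02. For none of the 9 did the CPM of the genotypes overlap, which also held for 78.3% of all tested genes. Added together, the 9 genes took 186 and 185 CPM in WT and 333 and 332 CPM in Mek1/2-tKO. The plot of levels by library shows every value behind these counts.

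**Figure D1:**
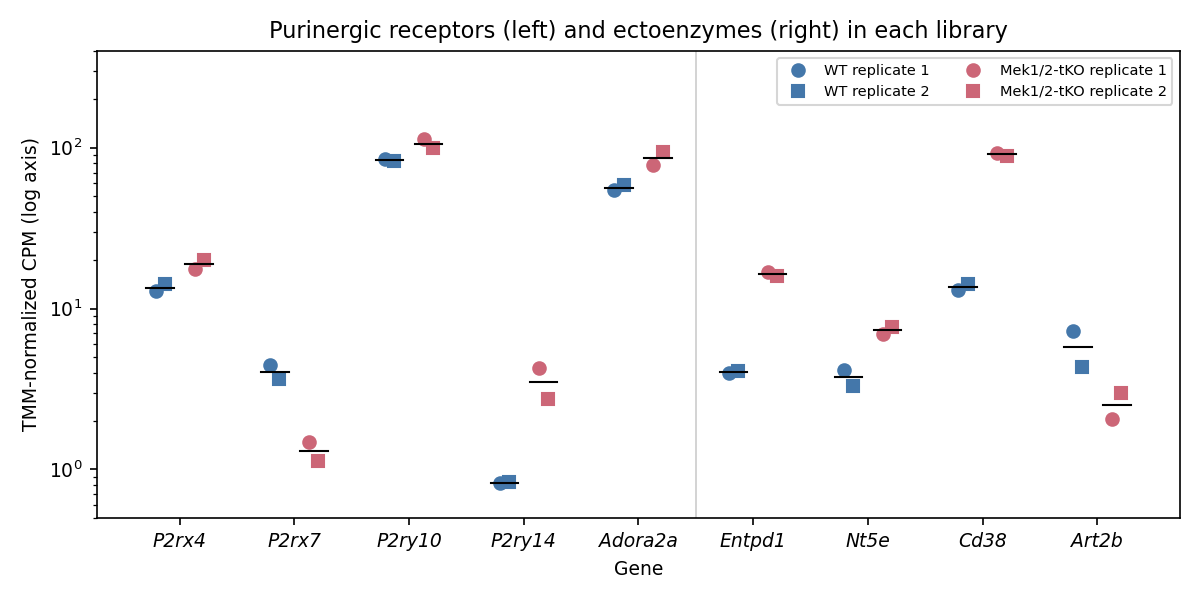
TMM-normalized CPM of the 9 genes (log axis) in each WT (blue) and Mek1/2-tKO (red) library, with circles for replicate 1, squares for replicate 2 and a black line at the mean of each genotype. In no gene do the genotypes overlap; Cd38 has the widest gap between genotypes, from 13 and 14.2 CPM to 92.7 and 89.0 CPM, and the WT replicates lie farthest apart for Art2b, at 7.29 and 4.30 CPM.

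Among the receptors, the P2X channels went apart. P2rx7 (chr5:122643911-122691432, plus strand) had 87 and 70 counts in WT and 23 and 21 counts in Mek1/2-tKO, or 4.46 and 3.63 CPM against 1.49 and 1.12 CPM. Each Mek1/2-tKO library thus lay well below the lower WT library. The level was 3.12-fold lower (log2 fold change -1.64, SE 0.38, n = 2 per genotype, edgeR adjusted p = 0.00256), and it remained called without any single library, at -1.85 to -1.45. The microRNA gene Mir8115 on the same strand covers 1.99% of the bases of its exons. P2rx4 (chr5:122707544-122729738, plus strand), a more ATP-sensitive channel, had 12.8 and 14.3 CPM in WT and 17.6 and 20.1 CPM in Mek1/2-tKO. Its log2 fold change of 0.48 (SE 0.16, n = 2 per genotype, edgeR adjusted p = 0.0201) passed the p threshold but not that on fold change, so that it was not called. The genes follow each other on the same strand with 16.1 kb between them, P2rx7 first. Within each library, the ratio of P2rx4 to P2rx7 in RPKM, which is CPM divided by exon length in kilobases, was 2.43 and 3.34 in WT and 10.1 and 15.3 in Mek1/2-tKO.

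P2ry14 (chr3:59113855-59153618, minus strand) was the least expressed of the 9 genes per length in WT, with 16 counts in each library and 0.821 and 0.83 CPM. In Mek1/2-tKO it had 66 and 51 counts, or 4.26 and 2.72 CPM, so that the Mek1/2-tKO replicates lay farther apart than those of WT, yet both above them. The level was 4.18-fold higher (log2 fold change 2.06, SE 0.45, n = 2 per genotype, edgeR adjusted p = 0.0016), with values of 1.71 to 2.35 when 1 library was left out. P2ry10 (chrX:107088492-107104974, plus strand) was the most expressed of the 9 genes per length in both genotypes. It lay at 84.9 and 82.7 CPM in WT and at 113 and 99.1 CPM in Mek1/2-tKO, a log2 fold change of 0.34 (SE 0.09, n = 2 per genotype, edgeR adjusted p = 0.00775) that was below the fold threshold. P2ry10 has a related gene, P2ry10b, 44 kb away on the same strand, which was called higher with a log2 fold change of 1.35, and reads shared by related genes can be lost or split in counting.

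Adora2a (chr10:75316877-75334784, plus strand) stood at 54.7 and 58.2 CPM in WT and at 78.0 and 93.7 CPM in Mek1/2-tKO. Both Mek1/2-tKO libraries lay above both WT libraries, and they differed from each other by more than the WT replicates did. The level was 1.52-fold higher (log2 fold change 0.61, SE 0.11, n = 2 per genotype, edgeR adjusted p = 3.14e-04), just above the fold threshold of 1.5. The call was lost, on fold change and not on p, without WT replicate 1 (0.56), without Mek1/2-tKO replicate 2 (0.46) and with scaling by library size alone (0.52).

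Of the ectoenzymes, Cd38 (chr5:43868553-43912375, plus strand) changed most. It had 254 and 273 counts in WT and 1435 and 1671 counts in Mek1/2-tKO, or 13 and 14.2 CPM against 92.7 and 89.0 CPM. Replicates of a genotype lay close together compared with the gap between genotypes. The level was 6.68-fold higher (log2 fold change 2.74, SE 0.11, n = 2 per genotype, edgeR adjusted p = 3.38e-10), and leaving out any 1 library gave 2.68 to 2.80. Cd38 is also expressed by B cells and myeloid cells, whose summed markers rose in the same libraries, and their part in its change was not tested.

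Entpd1 (chr19:40612366-40741602, plus strand) had 77 and 79 counts in WT and 262 and 300 counts in Mek1/2-tKO, or 3.95 and 4.10 CPM against 16.9 and 16.0 CPM. The level was 4.08-fold higher (log2 fold change 2.03, SE 0.20, n = 2 per genotype, edgeR adjusted p = 1.72e-06), with 1.99 to 2.06 when 1 library was left out. Entpd1 is known from regulatory T cells, whose summed markers fell in Mek1/2-tKO, and from B cells and myeloid cells, whose summed markers rose. The part of these cells in its change was not tested. Of the summed regulatory T-cell level, Il2ra alone took 657 and 649 CPM in WT and 346 and 348 CPM in Mek1/2-tKO. The paper counts this gene among surface molecules of non-Tfh cells. The paper also reports more regulatory T cells in polarized knockout cultures. Whether the share of regulatory T cells changed in these libraries was not tested. Nt5e (chr9:88327197-88372092, plus strand), the next enzyme of the chain, had 4.16 and 3.32 CPM in WT and 6.98 and 7.72 CPM in Mek1/2-tKO. It rose 1.97-fold (log2 fold change 0.98, SE 0.26, n = 2 per genotype, edgeR adjusted p = 0.00575) and remained called without any single library, at 0.82 to 1.14. The RPKM ratio of Entpd1 to Nt5e within a library was 1.47 and 1.9 in WT and 3.74 and 3.19 in Mek1/2-tKO.

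Art2b (chr7:101576970-101585600, minus strand) had 142 and 83 counts in WT and 32 and 56 counts in Mek1/2-tKO, or 7.29 and 4.30 CPM against 2.07 and 2.98 CPM. The WT replicates differed from each other by more than the lower of them differed from the higher Mek1/2-tKO library. The level was 2.28-fold lower (log2 fold change -1.19, SE 0.34, n = 2 per genotype, edgeR adjusted p = 0.00937). Without WT replicate 1 the value was -0.76 and the call was lost (edgeR adjusted p = 0.168), whereas without each other library it was called at -1.52 to -0.96, and the adjusted p was between 7.81e-04 and 0.0165 in the alternatives with all libraries. Its relative, listed as Art2a-ps, had 0 to 3 counts per library. Any reads that match both would not be placed uniquely, and their number was not checked, so the level of Art2b is uncertain. The RPKM ratio of Cd38 to Art2b, the enzymes that compete for NAD, was 1.3 and 2.39 in WT and 32.6 and 21.7 in Mek1/2-tKO. Like the other ratios here, it is taken over all cells of a library, and the RNAs may come from different cells.

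**Figure D2:**
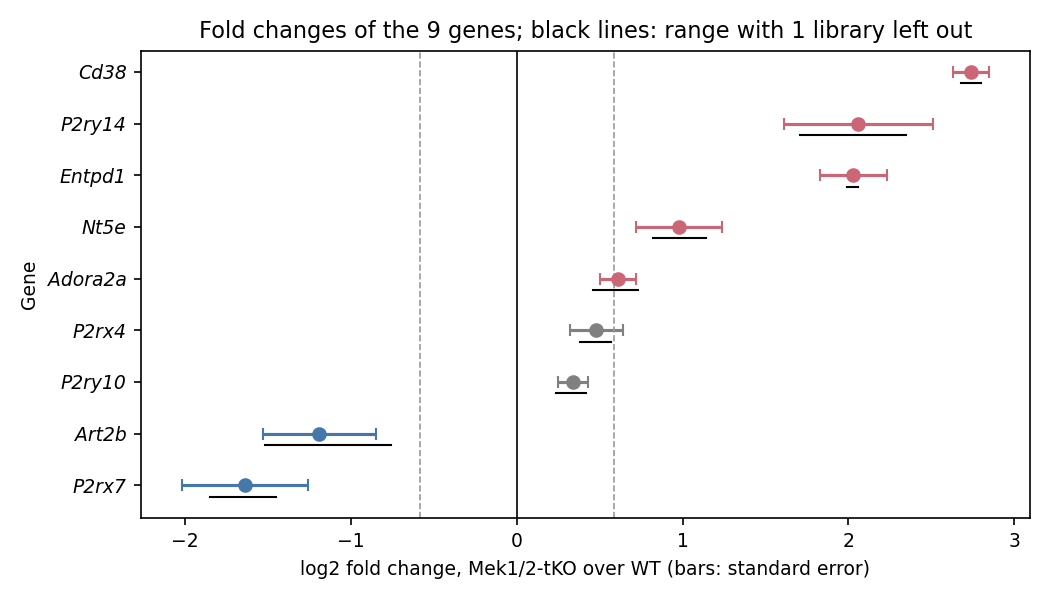
Fitted log2 fold changes (Mek1/2-tKO over WT) of the 9 genes with their approximate standard errors. Red marks genes called higher, blue genes called lower and grey genes not called. Dashed lines mark the 1.5-fold threshold, and the black line under each point spans the 4 fits with 1 library left out. Cd38 and Entpd1 have the narrowest ranges relative to their change, at 2.68 to 2.80 and 1.99 to 2.06, and only the ranges of Adora2a (0.46 to 0.73) and, by p, of Art2b (-1.52 to -0.76) include a lost call.

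Levels of the 9 genes were compared with each other per exon length, in RPKM. In WT the order of the means ran from P2ry10 (28.1 RPKM) and Adora2a (18.4) through Cd38 (3.5), Art2b (2.05), P2rx4 (1.92), Entpd1 (0.721), P2rx7 (0.678) and Nt5e (0.435) to P2ry14 (0.0746). The library values of Art2b and P2rx4 overlapped, as did those of Entpd1 and P2rx7, so the order within these neighbours is not set by 2 libraries. In Mek1/2-tKO P2ry10 (35.5 RPKM) and Adora2a (28) again came first, and Cd38 (23.4) lay just under Adora2a, followed by Entpd1 (2.95), P2rx4 (2.68), Art2b (0.893), Nt5e (0.854), P2ry14 (0.316) and P2rx7 (0.218). Here Art2b overlapped Nt5e and P2ry14 overlapped P2rx7. The ratio of Entpd1 to P2rx7, an ATP-degrading enzyme and an ATP receptor, was 0.947 and 1.21 in WT and 12.2 and 15.3 in Mek1/2-tKO. That of Nt5e to Adora2a, the enzyme that makes adenosine and its receptor, was 0.027 and 0.0203 in WT and 0.0318 and 0.0293 in Mek1/2-tKO.

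**Figure D3:**
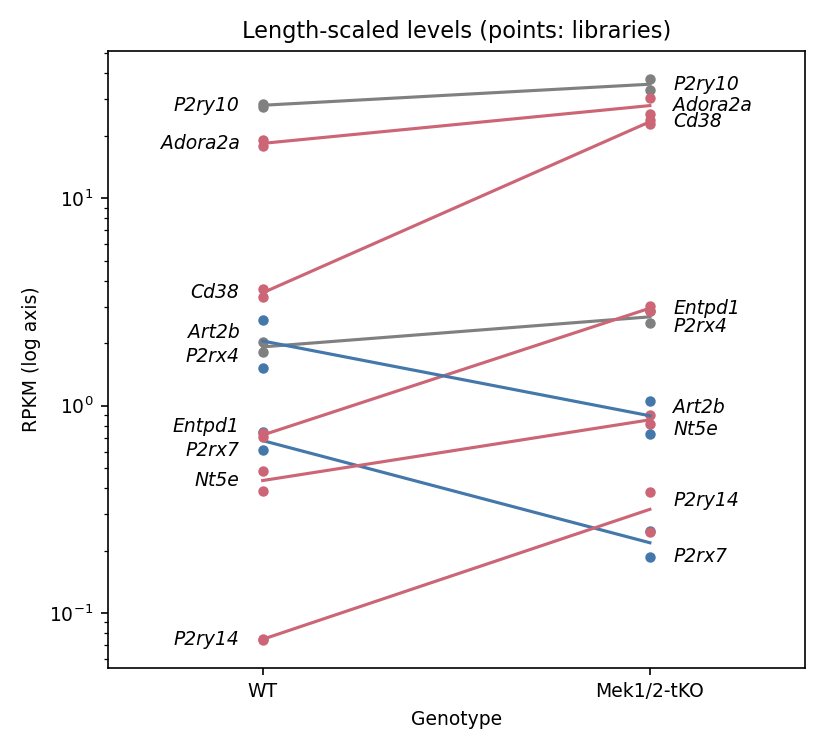
RPKM (log axis) of the 9 genes in WT and Mek1/2-tKO; points are libraries, lines join the means of the genotypes, and colours mark genes called higher (red), lower (blue) or not called (grey). P2ry10 and Adora2a lead in both genotypes, Cd38 rises from 3.5 to 23.4 RPKM, and the lines of P2rx7 and Art2b descend across those of other genes.

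The rest of the pathway was described with lists of 85 further genes, of which 67 were tested. Of these 17 were higher, 12 lower and 38 not called, with a median log2 fold change of -0.15. The 29 called genes stand beside the 35.8% called among all tested genes. The counts of each list below stand beside the same background, 19.3% higher and 16.4% lower.

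The other receptors were sparse. P2rx5 had no count in WT and 16 and 21 counts in Mek1/2-tKO, a mean 6.91-fold above a floor of 3 counts per library. Small counts were mostly even, as they would be with both mates of a fragment counted. A floor of 6 counts would lower this ratio to 3.46-fold. P2rx1, too low to be tested, had no count in WT and 14 and 4 counts in Mek1/2-tKO. Its mean was 3.59-fold above the floor of 3 counts and 1.8-fold above that of 6. The ratio of P2rx1 rested on Mek1/2-tKO replicate 1: with replicate 2 alone it was 1.37-fold against the floor of 3 counts. The 4 counts of replicate 2 lie below the floor of 6. These ratios leave out the counting error of the Mek1/2-tKO counts and are not strict bounds. Among the P2Y receptors proper, 3 of the 4 tested fell and the fourth was not called. P2ry1, an ADP receptor, had 9.85 and 9.91 CPM in WT and 0.517 and 0.852 CPM in Mek1/2-tKO (log2 fold change -3.81, SE 0.33, n = 2 per genotype, edgeR adjusted p = 4.72e-07), and Gm37035 on the other strand covers 23.1% of the bases of its exons. P2ry12, another ADP receptor, had 56 counts over both WT libraries and 4 over both Mek1/2-tKO libraries, a ratio of 12.4 (95% counting interval 4.57 to 47, or 3.24 to 111 on halved counts). P2ry13 had 25 and 36 counts against 4 and 8 (log2 fold change -2.16), and its call was lost without WT replicate 2 or Mek1/2-tKO replicate 1, at -1.87 in each case. P2ry4 was at 0 in every library.

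P2ry14 lies with P2ry12 and P2ry13 in 1 cluster on chromosome 3, and these relatives moved in the opposite direction. Along the minus strand within the opposite-strand gene Med12l, P2ry14 (2.06) is 12 kb from Gpr171, a gene of the P2Y-like list with 74.8 and 73.9 CPM against 131 and 125 CPM (0.78), and 54.3 kb from P2ry13 (-2.16), which is 5.39 kb from P2ry12 (-3.55), all given as log2 fold changes. Med12l itself was not called (-0.76). Gpr171 and Med12l were picked for their place after their values were seen.

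**Figure D4:**
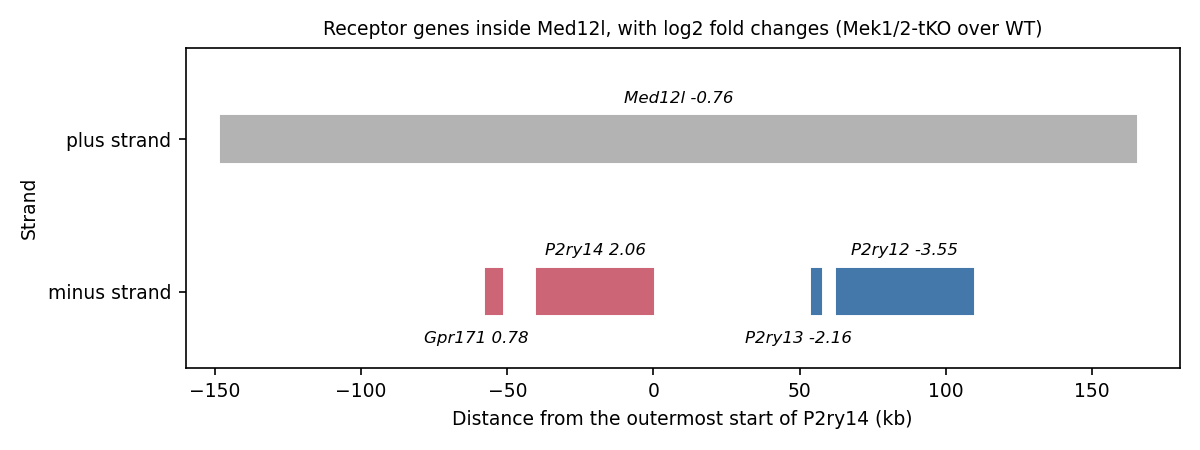
Genes of the P2ry14 cluster by distance from the outermost start of P2ry14 (kb) and by strand, each with its log2 fold change (Mek1/2-tKO over WT); red is called higher, blue lower and grey not called. Gpr171 and P2ry14 on the left were higher (0.78 and 2.06), and P2ry13 and P2ry12 on the right were lower (-2.16 and -3.55).

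In the P2Y-like list that holds the relatives of P2ry10, 4 of 6 tested genes rose, Gpr171 (0.78) among them, and 1 fell. Lpar6 changed most of those that rose, from 2.26 and 2.44 CPM to 11.6 and 11.7 CPM (log2 fold change 2.30), followed by P2ry10b (1.35) and Gpr34 (0.95), a further lysophosphatidylserine receptor whose call was lost without WT replicate 1 (0.79). Lpar5 fell by 1.11 on the log2 scale.

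Adora2b, the low-affinity adenosine receptor, moved opposite to Adora2a. It had 5.9 and 4.72 CPM in WT and 2.2 and 2.18 CPM in Mek1/2-tKO (log2 fold change -1.28, SE 0.31, n = 2 per genotype, edgeR adjusted p = 0.00344). The RPKM ratio of Adora2a to Adora2b was 5.59 and 7.43 in WT and 21.4 and 25.9 in Mek1/2-tKO. Adora1 was at 0 in every library, and Adora3 had 2, 2, 0 and 1 counts.

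Among 13 further ectoenzymes, 3 of 5 tested rose and the other 2 were not called. Bst1, a relative of Cd38 that lies 24.6 kb from it on the same strand, had 11 and 5 counts in WT and 32 and 40 counts in Mek1/2-tKO (log2 fold change 2.33). Leaving out WT replicate 1 gave 2.98 and leaving out WT replicate 2 gave 1.88, both called. Art4, of the family of Art2b, rose by 2.13 on the log2 scale from 8 and 5 counts, and its call was lost without WT replicate 2 or without either Mek1/2-tKO library. Enpp1, a nucleotide pyrophosphatase, reached 0.62 and lost its call with DESeq2's test, with library size alone (0.53) and without WT replicate 2 (0.35) or Mek1/2-tKO replicate 1 (0.47). Entpd8 and Enpp3 were at 0 in every library.

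Of 18 genes listed for the cyclic AMP arm of adenosine signalling, 1 was higher and 4 were lower. Among all tested genes, 19.3% were higher and 16.4% lower. The cyclases Adcy9, with 84 counts over both WT libraries and 2 over both Mek1/2-tKO libraries (ratio 37.1, 95% counting interval 9.96 to 312, or 6.31 to 1501 on halved counts), and Adcy3 (-0.81, with 22.1% of its exons under Cenpo on the other strand) fell, as did the phosphodiesterase Pde4d, from 37.5 and 38.6 CPM to 10.3 and 10.5 CPM (-1.87). Fitted log2 fold changes of Adcy9 were -5.04 with all libraries, -8.38 without Mek1/2-tKO replicate 1, which left no count in that genotype, and -4.00 without Mek1/2-tKO replicate 2. The phosphodiesterase Pde4a rose by 0.95, a call that was lost without WT replicate 1 (0.79) or Mek1/2-tKO replicate 2 (0.84).

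In the list of genes grouped here as P2X7 effectors, 5 of 8 tested genes were higher and 1 was lower, while P2rx7 fell. Among all tested genes, 19.3% were higher and 16.4% lower. Whether the listed genes act after P2X7 in these cells was not tested. Il1b rose from 2.82 and 2.59 CPM to 15.6 and 15.3 CPM (log2 fold change 2.51), Casp1, the caspase that processes it, rose from 11.4 and 12.3 CPM to 42.8 and 32.7 CPM (1.67), and Il18 rose by 2.06 in the fit with all libraries, a call lost without WT replicate 1 (1.90) or Mek1/2-tKO replicate 1 (1.19). Il1b and Casp1 are typical of myeloid cells, whose markers rose in the same libraries, and the part of those cells was not tested. The others called higher were Txnip, from 57.3 and 55.3 CPM to 165 and 170 CPM (1.57), and Gsdmd, from 28.2 and 29.6 CPM to 59.7 and 62.3 CPM (1.08). Adam10, a sheddase, fell by 0.69.

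Of 7 nucleoside handling enzymes 1 was higher, the purine nucleoside phosphorylase Pnp (0.72), a call lost without WT replicate 1 or Mek1/2-tKO replicate 1 (0.55 in each case). Another gene model on the same strand covers 18% of the bases of its exons. Among 8 tested genes of ATP release and nucleoside transport, the nucleoside transporter Slc28a2 rose (0.68) and Slc29a3 fell (-0.63). The call of Slc28a2 was lost without WT replicate 2 (0.57) and that of Slc29a3 without Mek1/2-tKO replicate 1 (-0.41). Of 8 genes of NAD synthesis, Nmrk1 rose (1.25) and Nampt, which makes the NAD precursor nicotinamide mononucleotide, fell from 269 and 247 CPM to 167 and 146 CPM (-0.72). Whether this route supplies the extracellular NAD used by the products of Cd38 and Art2b was not tested.

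**Figure D5:**
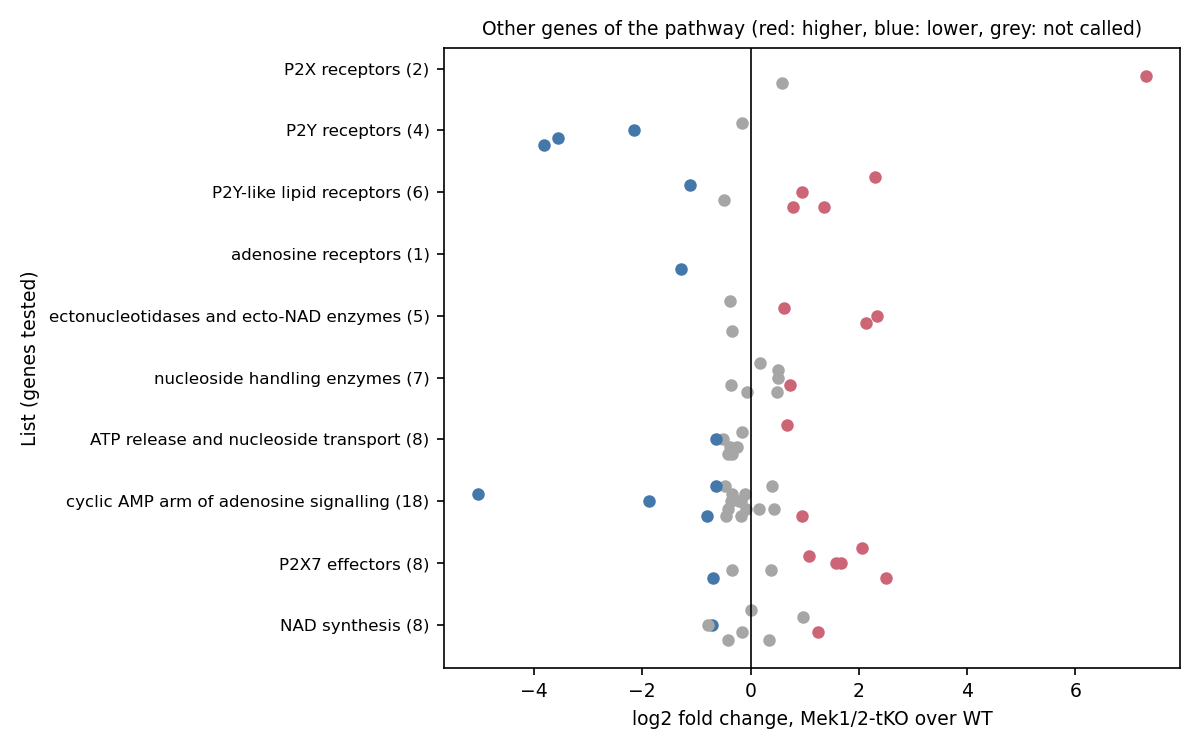
Log2 fold changes (Mek1/2-tKO over WT) of the 67 tested genes of the further lists, 1 row per list with the number tested in brackets; each point is a gene, red when called higher, blue when called lower and grey when not called. The P2Y receptors lie below 0, the P2X7 effectors mostly above, and the point farthest right is P2rx5, whose fitted value depends on the prior count because WT had no count.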

How the data were processed

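RNA-seq was analysed for 2 WT and 2 Mek1/2-tKO libraries, grouped by their titles. The authors trimmed reads with Trimmomatic 0.36, mapped them to GRCm38 with a tool written as STRA, counted uniquely mapped reads per gene with featureCounts (Subread 1.5.1) and deposited raw counts without normalization. The annotation release and strand setting are not given in the sources used here. Symbols were matched to 54723 of 54752 identifiers. Even numbers made up 64.8 to 67.6% of counts from 1 to 19, so mates may be counted separately, and halved counts were added as an alternative after seeing the data.

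Under R 4.3.3, counts were filtered with filterByExpr, scaled by TMM and tested with the robust quasi-likelihood fit of edgeR 4.0.16, and p was adjusted over 14330 genes by Benjamini-Hochberg. A count of 0 allows up to 3 counts, 0.154 to 0.194 CPM after TMM scaling, and intervals cover counting error only. The common dispersion was 0.00842. Replicates differed by more than sampling noise (chi-square per gene 4.11 in WT and 10.7 in Mek1/2-tKO, or 2.05 and 5.33 on halved counts). An exact permutation test of 2 against 2 libraries cannot go below p = 0.333, so none was used. The genes and lists were chosen with earlier results of these data known. Named in the text were all 9 genes, Map2k1 and Map2k2, up to 3 called genes per direction in each list, listed genes at 0 in every library, P2rx1, P2rx5, Adora2b and Adora3, the called marker of highest level in each marker list, Cd4 and Cd3e; 1 marker list is not reported here. Alternatives were DESeq2 1.42.0, its size factors, library size alone, a likelihood-ratio test, other filters and thresholds, a replicate block and leaving out each library, where a lone library is assumed to vary like the others. Python 3.11.15 with pandas 2.3.3 and matplotlib 3.10.9 was used for promoter windows and figures.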

Additional observations from a re-analysis of the deposited data

How the results depend on the processing

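Of the 9 genes, 7 were called with DESeq2's size factors, DESeq2's test, the likelihood-ratio test, either other filter and halved counts, 6 with library size alone, 9 with no fold threshold, 5 at a 2-fold threshold and 5 to 7 when 1 library was left out. No value changed sign in these alternatives: of 72 values of the 9 genes with all libraries 71 kept their side of the threshold, and of 36 with 1 library left out 33 did. Across all genes the count rose from 5123 to 7886 with no fold threshold (3983 higher, 3903 lower) and fell to 2765 at a 2-fold threshold (1725 higher, 1040 lower), and it was 4457 to 5418 when 1 library was left out. The further genes gave 46 calls (22 higher, 24 lower) with no fold threshold, 18 (11 higher, 7 lower) at a 2-fold threshold, and 24 to 28 when 1 library was left out. The share of higher genes among all calls was 54% and became 45.6% with library size alone, which moved the median log2 fold change of all genes from 0.0155 to -0.0693. With the replicate number as a block 4952 genes, 7 of the 9 genes and 29 of the further genes were called; the labels give no shared animal or day for a number, and the deviations of same-numbered libraries correlated at -0.0242. The approximate standard error of the log2 fold change, taken from the F statistic, was 0.45 for P2ry14, with 16 counts per WT library. It was 0.20 to 0.38 for Entpd1, Nt5e, P2rx7 and Art2b, with 64 to 142 counts. For P2ry10, Adora2a, Cd38 and P2rx4, with 249 or more, it was 0.09 to 0.16. The standard errors that DESeq2 estimated were larger for each of the 9 genes, from 0.11 for P2ry10 to 0.58 for P2ry14.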
